A study of Mus musculus with 6 samples.

Results

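The 9 genes described here, P2ry12, P2ry13, Gpr34, Siglech, Tmem119, Selplg, Sall1, Olfml3 and Sparc, are widely used as a signature of homeostatic microglia. They were taken by symbol from the 32285 genes of the deposited count tables, and all 9 were found. Nuclei were sorted as negative for the neuronal antigen NeuN from brains of C57BL/6 S-56 neonates that had received an intraventricular injection at postnatal day 7 and were collected at postnatal day 15. The injection held 5 µl of either lysophosphatidic acid (LPA), a bioactive lipid used to model post-hemorrhagic hydrocephalus, or vehicle, which was bovine serum albumin, the carrier in both groups. Olfactory bulbs and cerebellum had been removed. There were 3 LPA and 3 vehicle libraries, each labelled as a replicate brain, and the labels name no allele or transgene.

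Microglia are the resident macrophages of the brain parenchyma, and in the undisturbed brain they carry a gene program that sets them apart from macrophages of the meninges, vessels and choroid plexus. The program depends on transforming growth factor beta signalling and on the transcription factor Sall1, and its members are known to be lost when microglia take up lipid, phagocytose debris or respond to injury. The activated states that replace it often express Spp1, which encodes osteopontin, and Gpnmb, a lysosomal glycoprotein. The comparison asked of these data was whether a signature gene was lower within nuclei of one state, or only in the sum over states because the share of Spp1/Gpnmb-positive nuclei differed.

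By role, P2ry12 and P2ry13 encode ADP receptors and Gpr34 a receptor for lysophosphatidylserine. Siglech encodes a sialic acid-binding lectin, Tmem119 a transmembrane protein and Selplg the selectin ligand PSGL-1. Sall1 is the transcription factor, and Olfml3 and Sparc encode secreted matrix proteins. Some of the genes are neighbours in the GRCm38 (mm10) assembly with the GENCODE annotation. P2ry13 (chr3:59207892-59210882) and P2ry12 (chr3:59216272-59262871) lie on the minus strand 5389 bases apart, both within Med12l on the opposite strand. Tmem119 (chr5:113793729-113800516) and Selplg (chr5:113818536-113832644) lie on the minus strand 18019 bases apart. Gpr34 (chrX:13632089-13640858, plus strand) lies within Cask on the opposite strand, and the sources used here do not say how reads of opposite strands were told apart. The other genes were Siglech (chr7:55768178-55778925, plus), Sall1 (chr8:89027235-89044162, minus), Olfml3 (chr3:103722222-103738001, minus) and Sparc (chr11:55394500-55423183, minus).

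RefSeq promoter entries (GRCm38.p6) were found for 6 of the 9 genes, with 8 start sites among them, and not for Tmem119, Selplg and Gpr34. The 250 bases before the start were searched on both strands for the letters of PU.1, the ETS factor of the macrophage lineage, and of MEF2. The full PU.1 letters GAGGAAGT were in 0 of the 8 windows and in 2.44% of all 32851 windows, and the core of the MEF2 motif was in 0 of 8 and in 3.20%. The shorter ETS letters GGAAGT were in 3 of 8 windows and in 19.7% of all, and GAGGAA, which overlaps them, was in 1 of 8 and in 23.3%. A match describes the letters only and is no evidence of binding. The windows of the neighbours P2ry12 (chr3:59262986-59263235, minus strand) and P2ry13 (chr3:59210883-59211132, minus strand) are shown because these genes form the ADP receptor pair of the signature at a single locus. That of Siglech (chr7:55767934-55768183, plus strand) is shown because its fitted difference between states was among the largest. Capitals mark GGAAGT in P2ry12, 51 bases before the start, GAGGAA in P2ry13, 48 bases before it, and the reverse complement of GGAAGT in Siglech, 156 bases before it. The RefSeq start of P2ry12 lies upstream of the GENCODE coordinates given above. The bases after it were in no GENCODE transcript of the gene, unlike those after the P2ry13 and Siglech starts.
P2ry12: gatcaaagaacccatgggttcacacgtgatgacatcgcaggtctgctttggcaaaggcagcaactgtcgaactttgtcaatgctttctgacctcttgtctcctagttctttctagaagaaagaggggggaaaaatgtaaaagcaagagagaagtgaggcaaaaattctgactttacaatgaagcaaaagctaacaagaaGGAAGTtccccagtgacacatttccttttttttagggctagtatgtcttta
P2ry13: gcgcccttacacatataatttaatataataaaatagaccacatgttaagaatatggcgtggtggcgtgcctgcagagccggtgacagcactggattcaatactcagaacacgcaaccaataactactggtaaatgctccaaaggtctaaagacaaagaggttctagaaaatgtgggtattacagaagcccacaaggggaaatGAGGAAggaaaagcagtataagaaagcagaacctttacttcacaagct
Siglech: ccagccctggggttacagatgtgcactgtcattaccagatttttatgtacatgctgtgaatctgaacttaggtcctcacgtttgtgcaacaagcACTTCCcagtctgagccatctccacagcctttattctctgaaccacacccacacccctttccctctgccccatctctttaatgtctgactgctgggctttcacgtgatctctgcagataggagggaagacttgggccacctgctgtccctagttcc

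After filtering, 57443 nuclei remained from libraries of 48852970 to 65688644 UMIs. Clusters were formed without the 9 genes, Spp1, Gpnmb or any marker, and sub-clusters were named from marker lists that hold none of the 9. This gave 1841 microglia-like nuclei (376, 529 and 412 in LPA libraries 1 to 3, and 111, 317 and 96 in vehicle libraries 1 to 3) and 209 macrophage-like nuclei (23 to 64 per library). A further 1175 candidate immune nuclei stayed unnamed, of which 76.4% were called doublets. Among all libraries 708 barcodes occurred more than once, and 28 microglia-like nuclei carried one. Leaving these out moved no call on the 9 genes in microglia. The summed markers of macrophages in Spp1/Gpnmb-free microglia were 392 to 549 CPM (UMIs per 1000000 UMIs of the same nuclei) in LPA libraries, with Cd209f at 0, and 48.0 to 97.3 CPM in vehicle libraries, with Lyve1, Pf4, Cd163, Ms4a7 and Cd209f at 0. In macrophage-like nuclei they were 5571 to 13133 CPM, and their part in the results on microglia was not tested.

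A microglia-like nucleus was called Spp1/Gpnmb-positive if it held at least 1 UMI of either gene, and Spp1/Gpnmb-free otherwise. Positive nuclei were 79 of 376 (21.0%), 145 of 529 (27.4%) and 129 of 412 (31.3%) in the LPA libraries, a mean of 26.6% ± 5.20 (SD, n = 3). None of the 524 vehicle nuclei was positive, which allows a share of up to 0.573% by counting error alone. The groups did not overlap, and the two-sided exact permutation test gave p = 0.1, the smallest that 3 against 3 libraries allow. Thinned to 1500 UMIs per nucleus, the share was 27.0% ± 5.80 in LPA libraries (SD, n = 3) and 0 in vehicle libraries. Positive nuclei were deeper (median 2211 UMIs) than free nuclei of LPA libraries (1810) and of vehicle libraries (1425.5). In neurons of LPA libraries, Spp1 was detected in 1.19% and Gpnmb in 0.850% of nuclei at a median of 6281.5 UMIs. In neurons of vehicle libraries the shares were 0.502% and 0.251% at a median of 5206 UMIs. How much of this was free RNA was not tested. With no positive vehicle nuclei, LPA and vehicle could be compared within the free state only.

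In the sum of all microglia-like nuclei, 8 of the 9 genes fell with LPA, and Gpr34 did not pass the test (adjusted p = 0.677). Over all 8877 genes tested, 3.56% were called lower by edgeR's quasi-likelihood test. A gene was called where the adjusted p was under 0.05 and the change passed 0.25 on the log2 scale in either direction. The median log2 fold change was -1.12 over the 9 genes and -0.00 over all genes. The same 8 genes had libraries that did not overlap, which held for 11.1% of all genes tested in this direction.

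The largest fall in this sum was that of Tmem119. Its level was 132, 97.2 and 56.1 CPM in LPA libraries 1 to 3 and 347, 249 and 232 CPM in vehicle libraries 1 to 3. The lowest vehicle library was above the highest LPA library, and the log2 fold change was -1.51 ± 0.20 (SE, adjusted p = 2.92e-07). Selplg fell by 1.27 (SE 0.16, adjusted p = 9.10e-08), Sparc by 1.17 (SE 0.13, adjusted p = 1.31e-08) and Olfml3 by 1.14 (SE 0.18, adjusted p = 1.59e-05) on the log2 scale. These 4 genes were called under all 14 alternative settings in this comparison.

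The remaining calls were smaller or less stable. P2ry13 fell by 1.12 (SE 0.28, adjusted p = 0.00463), but its call was lost with DESeq2 (adjusted p = 0.0529) and without vehicle library 2 (log2 fold change -0.92, adjusted p = 0.259). Sall1 fell by 0.68 (SE 0.15, adjusted p = 0.00161), and without vehicle library 1 its log2 fold change was -0.46 (adjusted p = 0.0616). Siglech fell by 0.60 (SE 0.13, adjusted p = 0.000872) and was called under all 14 settings. P2ry12, often the first choice of a microglial marker, fell by 0.43 (SE 0.12, adjusted p = 0.0163). Its call was lost without LPA library 2 (log2 fold change -0.35), LPA library 3 (-0.44) or vehicle library 2 (-0.34), and with 2 of the other settings.

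**Figure D1:**
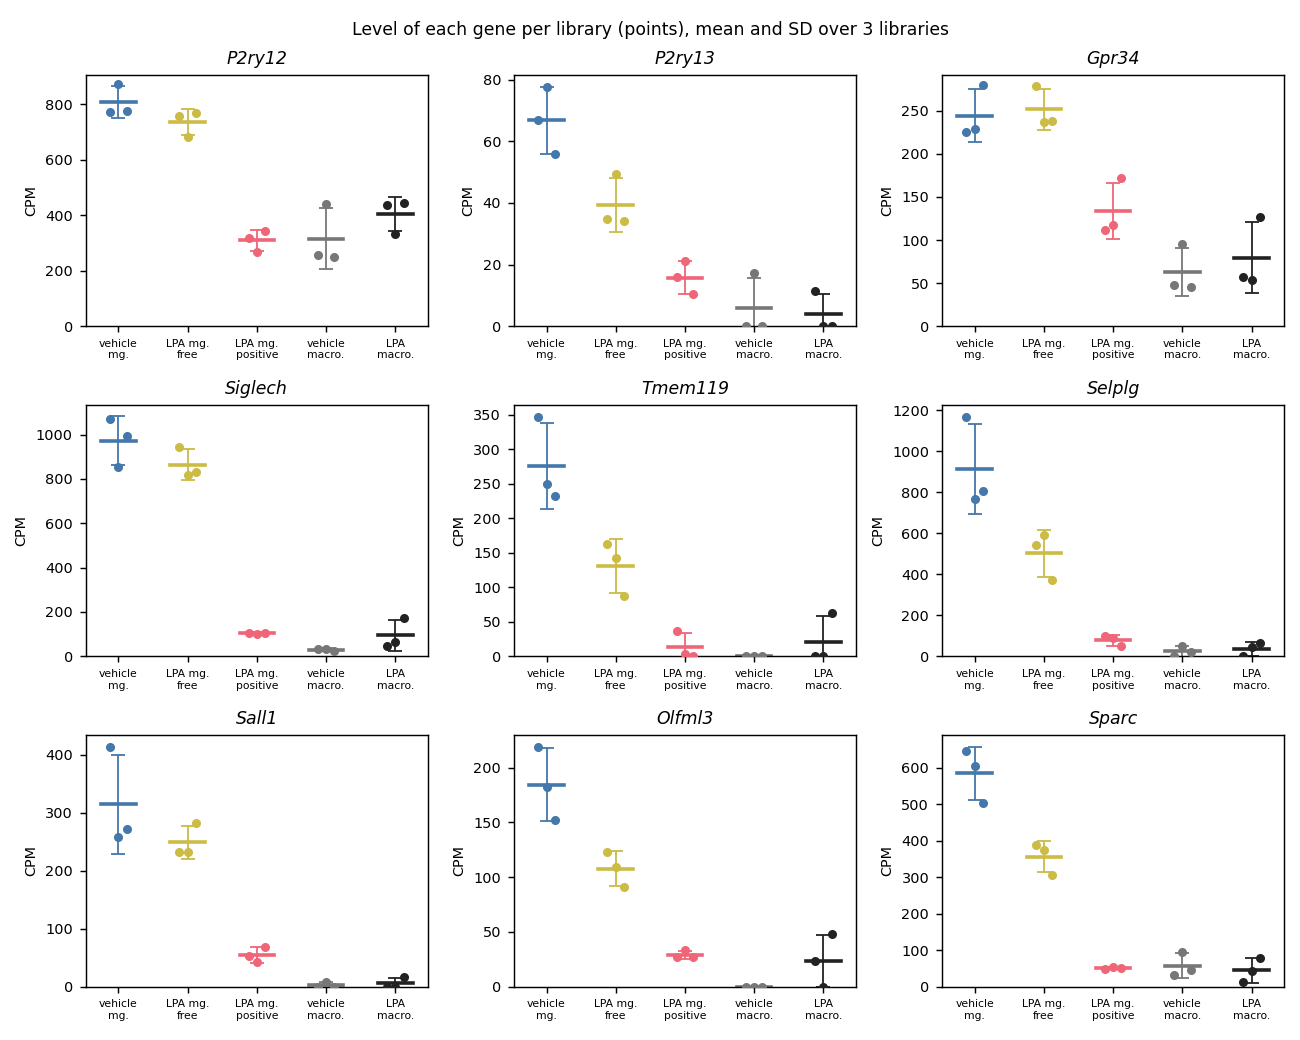
Level of each gene in CPM (vertical axes from 0) in vehicle microglia (mg.), Spp1/Gpnmb-free and Spp1/Gpnmb-positive LPA microglia, and vehicle and LPA macrophages (macro.), with libraries as points and bars for the mean and SD over 3 libraries. Positive nuclei lie below free nuclei for every gene, while free nuclei of LPA libraries lie below vehicle for Tmem119 (131 against 276 CPM) but not for Gpr34 (252 against 244 CPM).

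Within Spp1/Gpnmb-free microglia, 964 nuclei of LPA libraries were compared with the 524 of vehicle libraries. Tmem119, Selplg, Sparc and Olfml3 fell, and P2ry12, P2ry13, Gpr34, Siglech and Sall1 did not pass the test. Thus 4 of 9 were called lower, against 1.20% of the 8097 genes tested, and the median log2 fold change was -0.74 over the 9 genes and -0.01 over all. For 6 of the 9 genes every LPA library was below every vehicle library, against 8.68% of all genes tested. These 6 were the 4 called genes, P2ry13 and P2ry12.

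Tmem119 had 94, 98 and 46 UMIs in free nuclei of the LPA libraries (163, 143 and 87.1 CPM) and 57, 119 and 29 UMIs in the vehicle libraries (347, 249 and 232 CPM). LPA library 3 was the lowest, and the groups were far from overlapping. The log2 fold change was -1.05 ± 0.18 (SE, adjusted p = 3.72e-05). Selplg had 314, 406 and 196 UMIs in LPA libraries (544, 592 and 371 CPM) and 192, 366 and 101 UMIs in vehicle libraries (1168, 767 and 808 CPM). LPA library 3 was again the lowest and vehicle library 1 the highest, with no overlap. Selplg fell by 0.86 on the log2 scale (SE 0.15, adjusted p = 4.07e-05).

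Among the matrix genes, Sparc had 224, 257 and 162 UMIs in LPA libraries (388, 374 and 307 CPM) and 106, 289 and 63 UMIs in vehicle libraries (645, 606 and 504 CPM). Its groups did not overlap, and it fell by 0.74 (SE 0.13, adjusted p = 8.76e-05). Olfml3 was sparser, with 71, 75 and 48 UMIs in LPA libraries (123, 109 and 90.9 CPM) and 36, 87 and 19 UMIs in vehicle libraries (219, 182 and 152 CPM). Its groups did not overlap either, and it fell by 0.79 (SE 0.18, adjusted p = 0.00505). The call on Olfml3 was lost with DESeq2 (adjusted p = 0.116), without LPA library 3 (log2 fold change -0.69) and without vehicle library 2 (-0.83).

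None of the 3 receptor genes passed the test. P2ry12 had 438, 467 and 406 UMIs in LPA libraries (759, 680 and 769 CPM) and 127, 417 and 97 UMIs in vehicle libraries (772, 874 and 776 CPM). The groups only just did not overlap, and the log2 fold change was -0.16 ± 0.12 (SE, adjusted p = 0.659). P2ry13, its neighbour, had 20, 34 and 18 UMIs in LPA libraries (34.6, 49.5 and 34.1 CPM) and 11, 37 and 7 UMIs in vehicle libraries (66.9, 77.5 and 56.0 CPM). The groups did not overlap, but with so few UMIs the log2 fold change of -0.84 ± 0.28 (SE) had an adjusted p of 0.113. Gpr34 had 161, 163 and 126 UMIs in LPA libraries (279, 237 and 239 CPM) and 37, 109 and 35 UMIs in vehicle libraries (225, 228 and 280 CPM). The libraries were interleaved, with a log2 fold change of 0.06 ± 0.15 (SE, adjusted p = 0.925), and the fitted sign turned without LPA library 1 or without vehicle library 2 (-0.01 in each).

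The lectin gene Siglech had 546, 561 and 438 UMIs in LPA libraries (946, 817 and 830 CPM) and 176, 408 and 124 UMIs in vehicle libraries (1070, 855 and 992 CPM). LPA library 1 lay above vehicle library 2, and the log2 fold change was -0.17 ± 0.12 (SE, adjusted p = 0.642). The transcription factor gene Sall1 had 134, 160 and 149 UMIs in LPA libraries (232, 233 and 282 CPM) and 68, 123 and 34 UMIs in vehicle libraries (414, 258 and 272 CPM). Vehicle library 1 stood far above the other libraries, which overlapped. The log2 fold change was -0.30 ± 0.15 (SE, adjusted p = 0.426). Whether the change differed between any 2 of the 9 genes was not tested.

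**Figure D2:**
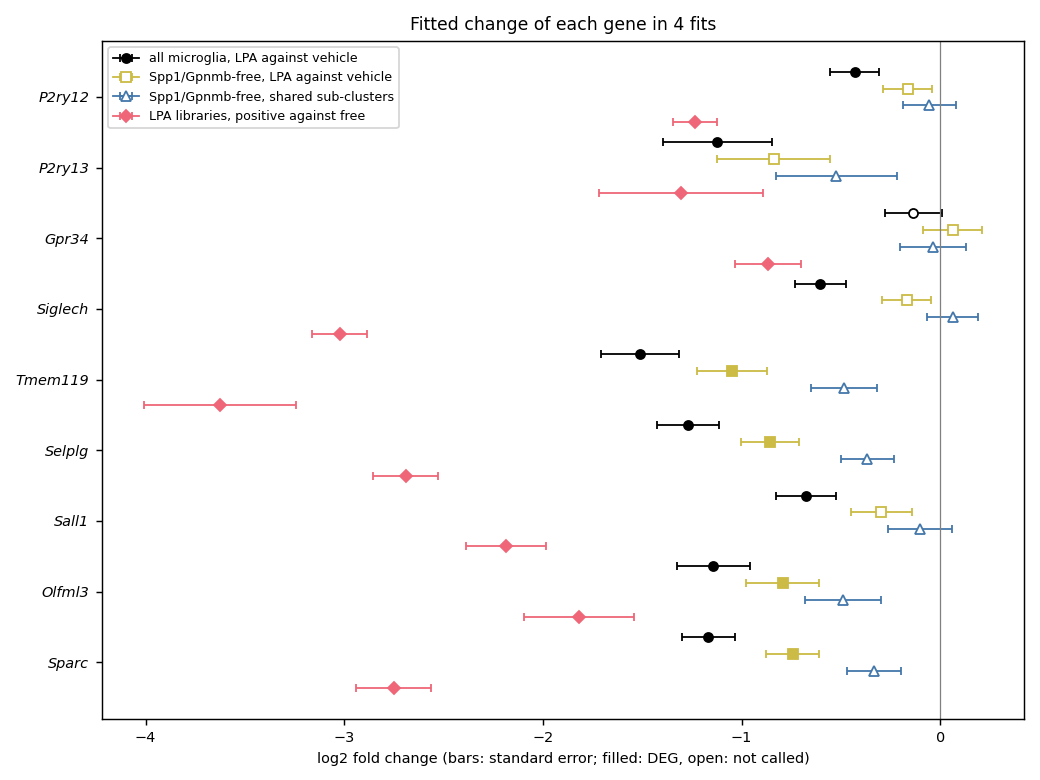
Log2 fold change of each gene (horizontal axis, bars are standard errors, filled points are called and open points not) in 4 fits, LPA against vehicle in all microglia, in Spp1/Gpnmb-free microglia and in free nuclei of sub-clusters shared with vehicle, and positive against free nuclei of LPA libraries. Among free nuclei, called points were limited to Tmem119, Selplg, Sparc and Olfml3, no point was called in shared sub-clusters, and positive against free nuclei was the fit farthest below 0 for every gene, from -0.87 (Gpr34) to -3.63 (Tmem119).

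Free nuclei of LPA libraries were not one population. One sub-cluster, led by Gpnmb and Spp1, held 460 nuclei of which 459 came from LPA libraries and 70.9% were positive, so that 133 of its LPA nuclei had no UMI of either gene and counted as free. In a second sub-cluster, led by Anapc15 and Plxdc2, 231 of 247 nuclei came from LPA libraries, and 215 of these were free. The other 3 microglia-like sub-clusters were shared, with 616 free nuclei from LPA and 507 from vehicle libraries.

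In the LPA-rich sub-cluster led by Anapc15, the 9 genes separated. As a percentage of the mean level of the vehicle libraries, over 3 LPA libraries, Gpr34 stood at 128% ± 0.940, P2ry12 at 93.1% ± 3.76, Sall1 at 83.2% ± 6.74 and Siglech at 83.0% ± 4.45 (SD). Olfml3 was at 51.8% ± 5.16, Sparc at 41.6% ± 10.7 and P2ry13 at 41.4% ± 15.3. The lowest were Selplg at 21.7% ± 1.05 and Tmem119 at 13.8% ± 7.86, the latter from 16 UMIs. The 16 vehicle nuclei of this sub-cluster held 22822 UMIs in all, with 1 UMI of Tmem119 (43.8 CPM, against 37.3 CPM pooled over the LPA nuclei) and 5 UMIs of Selplg (219 against 198 CPM). They also held 8 UMIs of P2ry12 (351 against 752 CPM) and 2 of Gpr34 (87.6 against 312 CPM), too few for a comparison of the groups within it. The sub-clusters were made from other genes of the same nuclei, so these values are given without a test.

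In the 133 free nuclei of the sub-cluster led by Gpnmb, all 9 genes were below the vehicle level. Gpr34 was at 78.3% ± 16.4 and P2ry12 at 52.5% ± 5.99 (SD, n = 3), while Siglech was at 32.2% and Sall1 at 27.3%. P2ry13 was at 19.9%, Sparc and Olfml3 were at 8.82% each, Selplg was at 6.52%, and Tmem119 had 0 UMIs. In positive nuclei P2ry12 was at 38.4% and Siglech at 10.7%, lower than in these free nuclei, while Selplg was at 8.62% and Tmem119 at 4.86%.

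**Figure D3:**
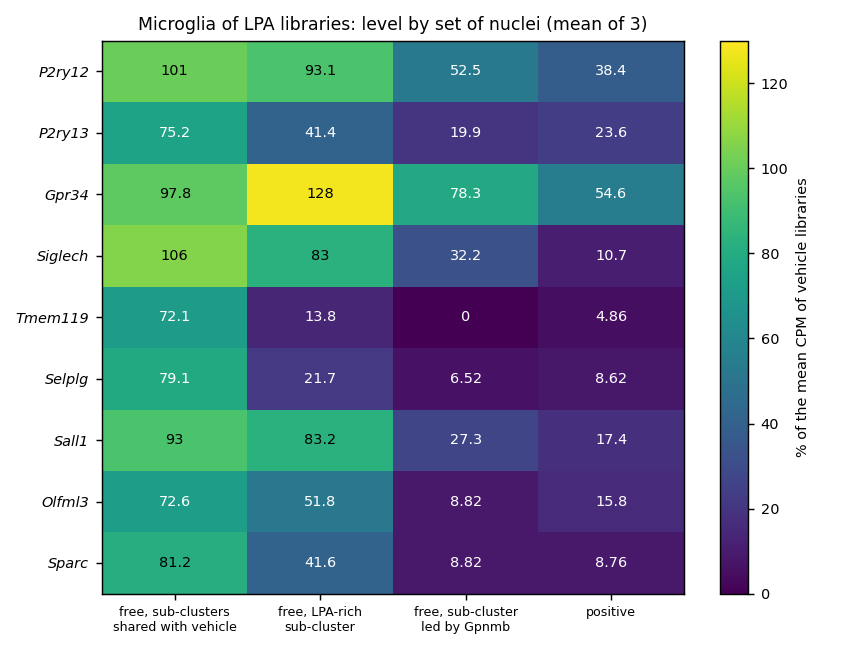
Level of each gene in microglia of LPA libraries (colour and printed number, % of the mean CPM of the vehicle libraries, mean of 3 libraries) in free nuclei of the sub-clusters shared with vehicle, of the LPA-rich sub-cluster and of the sub-cluster led by Gpnmb, and in positive nuclei. P2ry12 goes from 101% to 38.4% from left to right, whereas Tmem119 is at 72.1% in the first column and 13.8% in the second.

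Restricted to the shared sub-clusters, a choice made after the sub-clusters had been seen, none of the 9 genes was called. Shared sub-clusters were those with at least 20% vehicle nuclei, which kept 616 of the 964 free LPA nuclei. LPA nuclei least like vehicle were thus left out by the choice itself, which favours a smaller difference. At this setting edgeR's quasi-likelihood test called 0.272% of 6251 genes lower. Tmem119 was at 233, 195 and 168 CPM in LPA libraries and at 350, 257 and 247 CPM in vehicle libraries, still without overlap. Its log2 fold change was -0.49 ± 0.17 (SE, adjusted p = 0.241). Olfml3 was at -0.49, P2ry13 at -0.52, Selplg at -0.37 and Sparc at -0.33 on the log2 scale, with adjusted p of 0.344 or above. P2ry12 (-0.06), Sall1 (-0.10), Gpr34 (-0.04) and Siglech (0.06) were near 0.

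When instead every nucleus of the sub-cluster led by Gpnmb was counted as positive, Tmem119, Selplg and Sparc were still called among the others. There, 0.732% of 7787 genes were called lower. The others then included the Spp1/Gpnmb-positive nuclei of the remaining sub-clusters (6, 3, 16 and 2 nuclei), so this set was not the free state. Tmem119 fell by 0.85 (adjusted p = 0.000991), Selplg by 0.69 (adjusted p = 0.000975) and Sparc by 0.58 (adjusted p = 0.00435), and Olfml3 lost its call (-0.61, adjusted p = 0.0723). The calls within the free state therefore held without the Gpnmb-led nuclei for 3 genes, and for no gene without both LPA-rich sub-clusters.

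Between states of the same LPA libraries, all 9 genes were lower in positive than in free nuclei, in a fit with library as a block. Genes called lower made up 8.83% of the 7535 tested, and the median log2 fold change was -2.19 over the 9 genes and -0.01 over all. The nuclei were divided by UMIs of Spp1 and Gpnmb, which were left out of the fit. Tmem119 had 7, 1 and 0 UMIs in the positive nuclei of LPA libraries 1 to 3 (37.2, 3.02 and 0 CPM), against 94, 98 and 46 UMIs in free nuclei. Nearly all of its few UMIs came from library 1. The fitted log2 difference was -3.63 ± 0.38 (SE, adjusted p = 1.28e-11), a size that depends on the few UMIs left.

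Siglech had 20, 33 and 31 UMIs in positive nuclei (106, 99.5 and 106 CPM), against 817 to 946 CPM in free nuclei. The 3 libraries were nearly alike, and the log2 difference was -3.02 ± 0.14 (SE, adjusted p = 4.00e-26). Sparc had 9, 18 and 15 UMIs (47.9, 54.3 and 51.5 CPM) and a log2 difference of -2.75 ± 0.19 (SE, adjusted p = 1.92e-18). Selplg had 19, 29 and 14 UMIs (101, 87.4 and 48.0 CPM) and a log2 difference of -2.69 ± 0.16 (SE, adjusted p = 1.11e-20). Each of these genes was at a small fraction of its free level in all 3 libraries. Sall1 had 10, 14 and 20 UMIs (53.2, 42.2 and 68.6 CPM) and a log2 difference of -2.19 ± 0.20 (SE, adjusted p = 1.48e-13).

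Olfml3 (5, 11 and 8 UMIs) was lower by a log2 difference of -1.82 ± 0.28 (SE, adjusted p = 3.60e-07). P2ry13 (3, 7 and 3 UMIs) had a log2 difference of -1.31 ± 0.41 (SE, adjusted p = 0.0157), and its call was lost with DESeq2 (adjusted p = 0.417), without LPA library 2 (log2 difference -1.40, adjusted p = 0.151) and without LPA library 3 (-1.17, adjusted p = 0.0901). P2ry12 had 60, 89 and 100 UMIs in positive nuclei (319, 268 and 343 CPM), against 680 to 769 CPM in free nuclei, a log2 difference of -1.23 ± 0.11 (SE, adjusted p = 8.29e-14). Gpr34 had 21, 39 and 50 UMIs (112, 118 and 172 CPM), against 237 to 279 CPM in free nuclei, a log2 difference of -0.87 ± 0.17 (SE, adjusted p = 3.74e-05). Among nuclei of at least 2000 UMIs, P2ry13 was too sparse to be tested and the other 8 genes were called lower, as were 8.05% of the 5041 genes tested at this setting. For all 9 genes every positive sum lay below every free sum of the 3 LPA libraries, as held for 15.8% of genes tested in this direction. The summed markers of macrophages moved with this comparison, at 844 to 1118 CPM in positive nuclei, with Lyve1, Cd163 and Cd209f at 0, and 392 to 549 CPM in free nuclei of the same libraries, and their part in it was not tested.

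The difference between LPA and vehicle in all microglia was then divided, for each gene, into the difference between free nuclei of the groups and the remainder that comes from the positive nuclei. Positive nuclei gave 31.2% of the microglial UMIs of LPA libraries. Pooling weights libraries by their UMIs, and vehicle library 2 gave 477115 of the 766589 UMIs of vehicle microglia. Over pooled UMIs, the difference of Tmem119 in all microglia was -64.7% of the vehicle level, and 77.8% of it lay within free nuclei. The corresponding part within free nuclei was 80.7% for P2ry13, 75.8% for Olfml3, 72.0% for Selplg and 71.4% for Sparc. It was 44.1% for P2ry12, 43.5% for Sall1 and 20.6% for Siglech. With libraries weighted alike, mean Sall1 was 314 CPM in vehicle, 249 CPM in free LPA and 188 CPM in all LPA microglia. By these means the part of Sall1 within free nuclei was the larger. For Siglech, -25.6% of its -32.2% went with the share of positive nuclei.

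For Gpr34 the parts had opposite signs, 6.37% of the vehicle level within free nuclei and -15.3% by the share, with a sum of -8.88%. With the sub-cluster led by Gpnmb counted as the positive state, the part of Siglech within all other nuclei was 1.27% of the vehicle level, and that of P2ry12 was -7.80%. With positive nuclei set at 2 or more UMIs of Spp1 and Gpnmb together and all others as free, the part within free nuclei became the larger for P2ry12 (52.0%) and Sall1 (54.2%), and it was 38.2% for Siglech. The order of the genes depends on this limit and on few libraries, and was not tested. Without vehicle library 2 the part within free nuclei was 24.1% for P2ry12, 42.4% for Siglech and 63.6% for Sall1. Left out 1 library at a time, the difference of Sall1 within free nuclei ran from -105 to -13.5 CPM and that of Siglech from -174 to -21.2 CPM, whereas that of Sparc ran from -257 to -217 CPM and that of Tmem119 from -164 to -113 CPM. The value nearest 0 for Sall1 was that without vehicle library 1 and that for Siglech without vehicle library 1 as well.

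**Figure D4:**
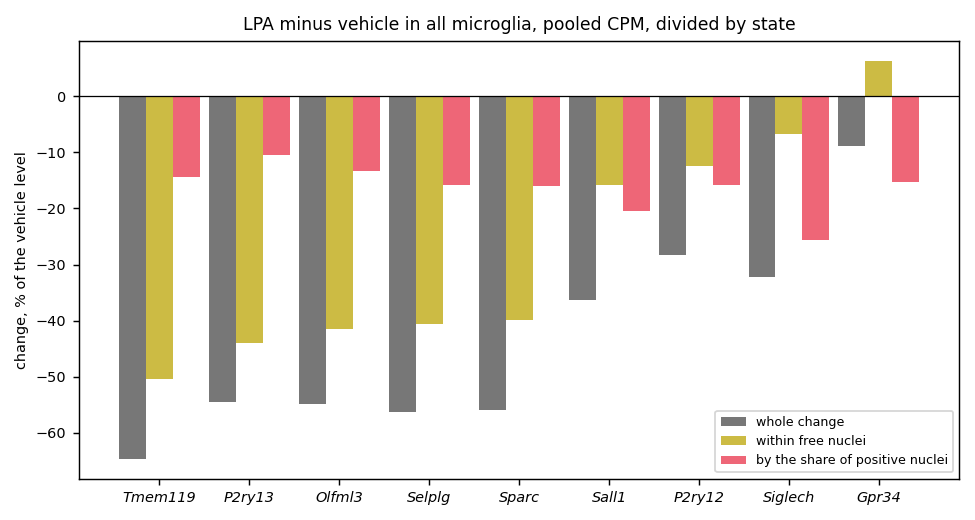
Difference between LPA and vehicle microglia (vertical axis, % of the vehicle level, pooled CPM) for each gene as a whole, within Spp1/Gpnmb-free nuclei and by the share of positive nuclei, with no error bars because UMIs were pooled. The bar within free nuclei is the longer part for Tmem119 (-50.3%), P2ry13, Olfml3, Selplg and Sparc, and the bar by share is the longer for Siglech (-25.6%), Sall1, P2ry12 and Gpr34, an order that turns for Sall1 (-19.7% within free nuclei and -16.6% by share) and P2ry12 (-14.7% and -13.6%) with positive nuclei set at 2 or more UMIs.

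Transcripts were also counted by the share of nuclei in which each was detected. Nuclei were pooled over libraries and no test was made. The thinned vehicle nuclei were 40, 146 and 17 from vehicle libraries 1 to 3, so library 2 weighs most. At 1500 UMIs per nucleus, Selplg was detected in 44.8% of 770 free nuclei of LPA libraries and in 66.0% of 203 vehicle nuclei. Sparc was detected in 40.1% and 57.1%, Tmem119 in 18.6% and 28.1%, and Olfml3 in 15.2% and 23.6%. For Siglech the shares were 65.6% and 66.5%, and for Gpr34 28.4% and 29.1%, while P2ry12 was detected in 61.0% and 70.0% and Sall1 in 29.2% and 34.5%. In 334 positive nuclei, Siglech was detected in 13.2%, Selplg in 8.38%, Sparc in 6.89% and Tmem119 in 1.20%, but P2ry12 in 33.8%. Thinning left out 194 free LPA, 321 vehicle and 19 positive nuclei as too shallow, and before thinning Selplg was detected in 49.5% of free LPA and 67.6% of vehicle nuclei, P2ry12 in 64.4% and 65.3%, and Sall1 in 34.2% and 31.9%. In vehicle neurons, which should lack the signature, 1.52% held a UMI of Selplg, 0.980% of Siglech and 12.6% of P2ry12 at a median of 5206 UMIs.

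Macrophage-like nuclei held little of most of the signature, with P2ry12 as the main exception. Its mean was 405 CPM in LPA and 316 CPM in vehicle libraries, against 605 and 807 CPM in microglia-like nuclei. Gpr34 was at 79.4 and 62.9 CPM, against 217 and 244 CPM in microglia-like nuclei. Only P2ry12 had enough UMIs to be tested, and it was not called, where 0.271% of the 1845 genes tested were. P2ry12 had 38, 31 and 28 UMIs in LPA libraries (436, 334 and 444 CPM) and 16, 51 and 11 UMIs in vehicle libraries (256, 442 and 249 CPM). Vehicle library 2 was as high as the LPA libraries, and the log2 fold change was 0.19 ± 0.28 (SE, adjusted p = 0.905). Without vehicle library 2 it was 0.57 (adjusted p = 0.760).

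The other 8 genes in macrophage-like nuclei are given as UMIs. Siglech had 4, 6 and 11 UMIs in LPA libraries and 2, 4 and 1 in vehicle libraries, and Gpr34 had 5, 5 and 8 against 3, 11 and 2. Sparc had 1, 4 and 5 against 2, 11 and 2, and Selplg 0, 4 and 4 against 0, 6 and 1. Tmem119 had 4 UMIs, all in LPA library 3, and Olfml3 had 2, 0 and 3 in LPA libraries, while both were at 0 in all vehicle libraries. Sall1 and P2ry13 had at most 2 UMIs in any library. Spp1/Gpnmb-positive macrophages were 2 in LPA and 4 in vehicle libraries, too few for a comparison of states. The marker list of microglia summed to 3018 to 3730 CPM in macrophage-like nuclei of LPA libraries and to 2128 to 2426 CPM in those of vehicle libraries, and its part in these UMIs was not tested.

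Outside the immune nuclei most of the 9 genes were near 0. P2ry12 was at 12.9 to 26.4 CPM in every other class, against 807 ± 57.7 CPM (SD, n = 3) in vehicle microglia. Siglech, at 972 CPM in vehicle microglia, was at 1.36 to 13.5 CPM in the same classes. In vehicle neurons it was at 2.22 CPM, against 26.4 CPM for P2ry12. The source of these low values, free RNA included, was not tested. Sparc, which encodes a matrix glycoprotein that is also made by astrocytes and vessels, was the exception. It stood at 386 CPM in vascular nuclei and 212 CPM in astrocytes of vehicle libraries, and at 395 and 145 CPM in those of LPA libraries. The low level of Sparc in positive microglia was thus below that of astrocytes in the same libraries. Sall1 was at 38.4 CPM in the oligodendrocyte lineage of vehicle libraries and at 33.7 CPM in that of LPA libraries, above its 2.89 and 5.29 CPM in macrophage-like nuclei.

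**Figure D5:**
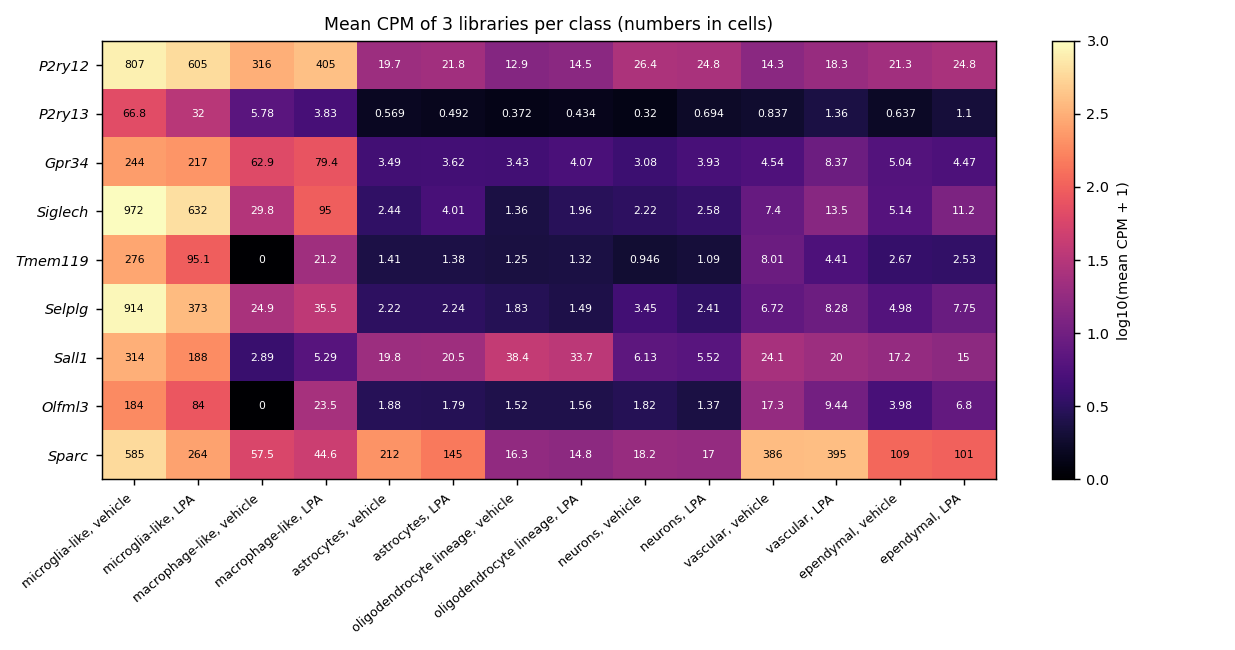
Mean CPM over 3 libraries of each gene (rows) in each class of nuclei and group (columns), with the colour on a log10(CPM + 1) scale and the CPM printed in each cell. Vehicle microglia hold the highest level of every gene, from 66.8 CPM (P2ry13) to 972 CPM (Siglech), and Sparc alone is above 100 CPM in astrocytes, vascular and ependymal nuclei.

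A list of 25 other genes of the homeostatic program was examined in the same fits, and whether it differed from the 9 was not tested. In all microglia 12 of the 24 tested fell and none rose (median log2 fold change -0.45), against 3.56% of all genes tested called lower. In free nuclei 5 of 23 fell, against 1.20% of all genes tested, and the median was -0.26. Among those with the lowest p were Tgfbr1, a receptor of transforming growth factor beta (-0.76, adjusted p = 5.98e-06), the transporter gene Slco2b1 (-0.48, adjusted p = 0.0228) and Lpcat2, for an enzyme of phospholipid synthesis (-0.47, adjusted p = 0.0247). Calls on Slco2b1 and Lpcat2 were lost with DESeq2 (adjusted p of 0.118 and 0.127). They were also lost without LPA library 2 (log2 fold changes of -0.46 and -0.45) and without LPA library 3 (-0.43 and -0.51). Without vehicle library 1, Slco2b1 (-0.29) and Lpcat2 (-0.42) were not called, and Lpcat2 was not called without vehicle library 2 (-0.46) or LPA library 1 (-0.43) either. In positive against free nuclei 16 of 23 were lower, against 8.83% of all genes tested. Among them were Slco2b1 (-2.04), Cx3cr1, the fractalkine receptor gene (-1.68), and Lpcat2 (-2.09). Bhlhe41 (0.98) and Pros1 (0.43) were higher, but both calls were lost with DESeq2 and without LPA library 2 (0.70 and 0.47), and that on Pros1 also without LPA library 3 (0.32). The 25 genes include 9 that helped to name microglia-like sub-clusters.

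Genes of microglial activation went the other way in the same nuclei. Of 14 listed, 10 of the 11 tested rose in all microglia (5.53% of all genes tested) and 5 of the 7 tested rose in free nuclei (1.51%). All 11 tested were higher in positive than in free nuclei (10.8%). The filter on low counts left 3, 7 and 3 of the 14 untested. Itgax and Lgals3 had 0 CPM in vehicle microglia, and Igf1 and Csf1 stood at 11.7 and 12.5 CPM in free vehicle nuclei. Genes this low in 1 group pass the filter through the other and can hardly be called lower, so the counts are descriptive only. In free nuclei Igf1, a growth factor gene, rose by 3.59 on the log2 scale (SE 0.38, adjusted p = 5.58e-10). Ctsb, a lysosomal protease gene, rose by 1.45 and Apoe, an apolipoprotein gene, by 1.17, and Cd9 rose by 0.86. In the shared sub-clusters Igf1 was too sparse to be tested and the other 3 were not called, with Ctsb at 0.26, Apoe at -0.17 and Cd9 at -0.00.

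The genes whose level followed the 9 most closely were found over 15 sums of nuclei, that is, the free, positive and macrophage-like nuclei of each library, with the mean standardized level of the 9 as the reference. The closest were Bin1 (Pearson r = 0.986), Dennd4a (0.974), Inpp5d (0.970), Chst11 and Elmo1 (both 0.969). Inpp5d is itself in the marker lists that named immune clusters and microglia-like sub-clusters. Next came Soga1, F11r, Frmd4a, Srgap2 and 4933406I18Rik, down to 0.951. The 9 themselves correlated with their own mean at 0.836 (P2ry13) to 0.973 (Siglech). These sums share libraries and depth, and the contrast of microglia with macrophages enters every value.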

How the data were processed

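Single-nucleus RNA sequencing was analysed in 3 LPA and 3 vehicle libraries. The authors made the deposited files with Cell Ranger 4.0.0 and an mm10 pre-mRNA reference, so that intronic reads were counted, and the values are raw UMI counts per gene and nucleus without normalization. Reads, alignment and the calling of nuclei were not repeated here.

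The members and lists were chosen with earlier results of these data known. Nuclei were kept if they had 300 genes or more, no more than 1% mitochondrial UMIs and a total within 1.5 interquartile ranges of the upper quartile (scanpy 1.11.5, Python 3.11.15). Clusters came from 3000 variable genes, 40 principal components and leidenalg 0.10.2 at resolution 1, and 3225 candidate immune nuclei were clustered again into 15 sub-clusters. Rules for leaving mixed clusters unnamed were chosen with the clusters in view. Scrublet calls at an expected rate of 0.08 were left out only in an alternative. Class names rest on rebuilt clusters, so differences from the study may come from them. Replicate libraries differed by more than sampling noise (chi-square per degree of freedom 1.32 to 1.76).

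UMIs were summed per library and state, where every library had at least 10 nuclei, and tested with edgeR 4.0.16 (R 4.3.3) by the quasi-likelihood test with TMM scaling, filterByExpr and Benjamini-Hochberg adjustment over all genes. CPM are UMIs per 1000000 UMIs of the same nuclei. On simulated counts, 200 genes changed by 1 on the log2 scale were recovered in 48.0% of cases among the 8877 genes of all microglia, 58.5% of the 8097 of free microglia, 42.0% of the 1845 of macrophages and 61.5% of the 7535 of positive against free nuclei. Since vehicle libraries held no positive microglia, the planned division by mean levels could not be computed and was replaced by the free difference plus the remainder. The fit of LPA against vehicle in positive microglia could not be made. Named genes were the 9 genes, the called genes of lowest p from each list and the 10 most alike, and some that this rule names are not reported here. Intervals and limits cover counting error only. The labels do not say whether equal replicate numbers mark shared litters or days. Alternatives covered DESeq2 1.42.0, scaling, filters, states, doublets, clustering and each library left out.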

Additional observations from a re-analysis of the deposited data

Results flagged for a closer look

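The effect of LPA was compared between macrophage-like nuclei and Spp1/Gpnmb-free microglia-like nuclei by an interaction term in edgeR, with library as a block, over 1818 genes. At an adjusted p under 0.05, 34 genes differed. The 6 listed genes named here were among them, and P2ry12, the only one of the 9 signature genes with enough UMIs in both, was not (macrophage minus microglia log2 difference 0.44, adjusted p = 0.703).

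Among other homeostatic genes the effect was higher in macrophages for Tgfbr1 (log2 difference 2.55, adjusted p = 1.23e-05), Cx3cr1 (1.60, adjusted p = 0.00189) and Lpcat2 (2.17, adjusted p = 0.00430). Within macrophages alone, Tgfbr1 rose by 1.76 (adjusted p = 0.0215), a call lost with the replicate block (1.72) and without any single library other than LPA library 2 (1.51 without LPA library 3 to 1.95 without vehicle library 2). Cx3cr1 had 1.17 there (adjusted p = 0.152) and Lpcat2 1.62 (adjusted p = 0.417).

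Among activation genes the effect was lower in macrophages for Igf1 (log2 difference -3.60, adjusted p = 1.00e-04), Apoe (-1.41, adjusted p = 2.06e-04) and Ctsb (-1.53, adjusted p = 0.00480). Igf1 had a log2 fold change of -0.13 within macrophages, Apoe -0.31 and Ctsb -0.21, none of them called. Vehicle macrophages already stood at 521 (Igf1), 7754 (Apoe) and 980 (Ctsb) CPM over the genes of their fit. Vehicle free microglia stood at 11.7, 683 and 211 CPM in theirs, on a scale that differs. The macrophage sums rest on 23 to 64 nuclei per library. Marker genes of microglia were higher in the LPA macrophage sums (3018 to 3730 CPM) than in the vehicle sums (2128 to 2426 CPM), and their part in these differences was not tested.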

How the results depend on the processing

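Genes called in all microglia (807), free microglia (219) and positive against free nuclei (1480) dropped with DESeq2 to 451, 90 and 575. In free microglia there were 129 at sub-cluster resolution 2, 111 with states set by sub-cluster, and 22 in the shared sub-clusters, where 0 of the 9 signature genes were called. In macrophages (5 genes) there were 20 with no filter on low counts, 2 without Scrublet doublets and 2 at resolution 2. Among nuclei of at least 2000 UMIs, positive against free nuclei gave 887. Some of these sums hold fewer nuclei, and the cause of these differences was not tested. Leaving out each library in turn gave 468 (without vehicle library 2) to 812 genes in all microglia, 102 (without LPA library 3) to 237 in free microglia with 111 without vehicle library 2, 0 to 5 in macrophages, and 896 (without LPA library 2) to 1247 in positive against free nuclei. Signs turned in the shared sub-clusters for Gpr34 (-0.0357), Siglech (0.0624), Apoe (-0.17) and Cd9 (-0.0009), and for Gpr34 in free microglia without LPA library 1 or vehicle library 2 (lowest -0.0145 and highest 0.1358 over libraries left out). Of 839 single-gene values under alternatives, 768 kept direction and call, 65 lost the call and 6 changed sign.

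With the replicate number as a block, 743 genes were called in all microglia, 182 in free microglia and 1 in macrophages. The deviations of libraries with the same number correlated at 0.144, 0.213 and -0.0677, against -0.312 to 0.167 for libraries with different numbers. These few values cannot exclude a pairing, and the numbers were not taken to pair the samples.

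Neither LPA against vehicle in positive microglia nor free microglia of at least 2000 UMIs was run, since vehicle libraries held too few such nuclei. Depth limits P2ry13, Olfml3 and Tmem119 in positive nuclei and all genes but P2ry12 in macrophages.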
